A study of Mus musculus with 20 samples.

Results

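The genes described here are those switched on by interferons, in liver and white adipose tissue (WAT) of obese mice with and without CD44. Of 41 listed genes, 40 had a probe on the array and Xaf1 was not matched. A gene was taken as a member by its symbol in the scanner files or by the current symbol of its accession, and was read by its brightest probe among the 41174 probes other than controls. All animals were C57BL/6 males of 7 months, fed for 21 weeks with food of which fat made up 35% (HFD). WT(HFD) mice were wildtype and CD44KO(HFD) mice lacked CD44 in the whole body, with 5 arrays for each genotype and tissue, 20 in all. No array of lean mice was included, the fat depot is not named in the labels, and RNA of whole tissue was measured.

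Interferons are secreted antiviral signals. Type I interferons act through their receptor and a factor that contains Stat2 and Irf9, binds the interferon-stimulated response element (ISRE) and switches on the Ifit, Oas and Mx antiviral families. Interferon gamma, a product of T cells and NK cells, acts at gamma-activated sites (GAS) and is the strongest inducer of the guanylate-binding proteins (Gbp), the immunity-related GTPases (Irg) and the immunoproteasome subunits (Psmb8, Psmb9). Many of the genes answer to both kinds of interferon, so the division into type I and gamma families is one of emphasis.

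Levels are given as log2 of the processed signal minus the 75th percentile of the array, so that 0 is the brightness of the 75th percentile and 1 unit is a doubling. Cd44 itself, read on a single brightest probe, lay between 0.10 and 0.83 in WT(HFD) liver and between -4.19 and -3.24 in CD44KO(HFD) liver, and between 3.55 and 4.56 against -0.67 and -0.35 in WAT. Whether that probe lies in the deleted stretch was not determined. Adjusted p-values are from limma with Benjamini-Hochberg adjustment over all probes tested in the tissue, and a difference was called below 0.05. Replicate arrays of a group correlated at 0.981 or more in liver. In WAT the first WT(HFD) replicate stood apart, with correlations down to 0.825 and 89.5% of its spots well above background, where the other 9 WAT arrays had 63.2% to 69.5%. The family medians, the counts at an unadjusted p and Oas3 in WAT are given with and without it.

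In liver, CD44KO(HFD) mice had lower levels of 25 of the 39 members that could be tested, and no member was higher. In the same comparison 5.75% of all probes were lower and 7.85% were higher. The median member differed by -0.79 on the log2 scale, where the median of all probes was 0.08. For 24 members every CD44KO(HFD) liver read below every WT(HFD) liver, which held for 4.22% of all probes. An exact two-sided permutation test over the 252 relabellings gave 0.00794 for each of these, the smallest value it can give. Full separation of the groups fixes that value, so the test adds no support for these 24. In whole tissue, fewer cells of a type and less RNA per cell cannot be told apart.

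**Figure D1:**
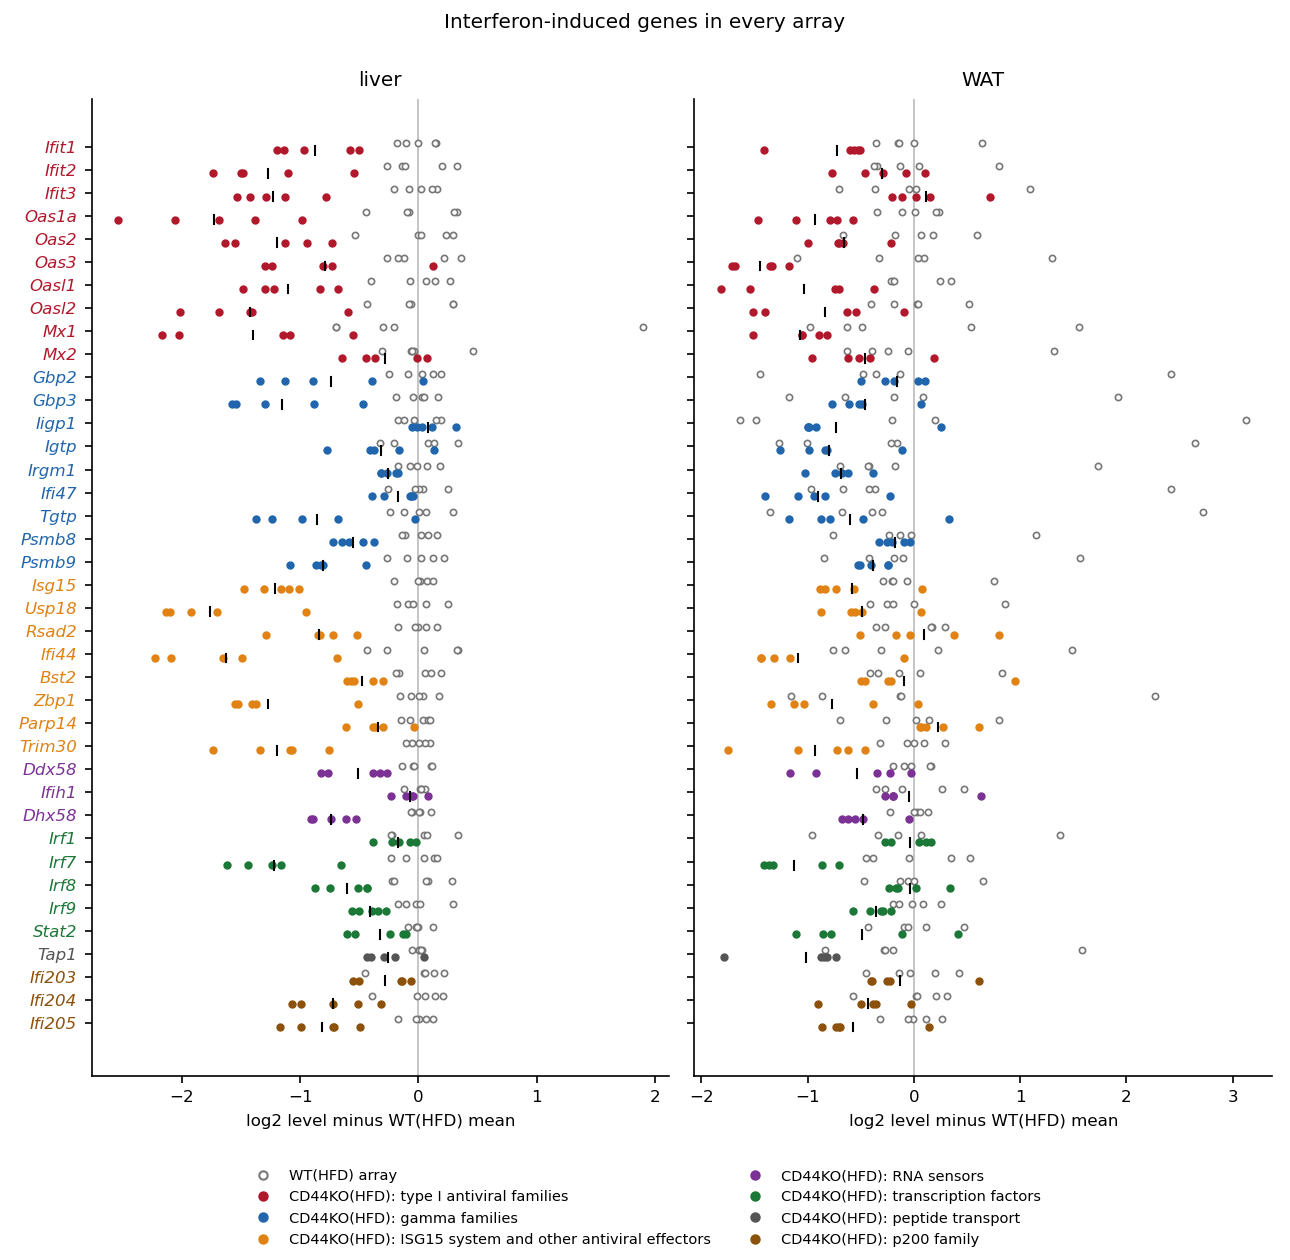
Level of each tested member in every array, as log2 difference from the WT(HFD) mean of the tissue, in liver (left) and WAT (right); open circles are WT(HFD) arrays, filled circles CD44KO(HFD) arrays coloured by group of genes, and the black ticks mark the CD44KO(HFD) means. In liver the filled circles lie left of the open ones for 24 of 39 genes, and in WAT the blue rows show a single open circle far to the right, WT(HFD) replicate 5.

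Of the type I antiviral families, 7 of 10 tested genes were lower and none was higher. The median difference was -1.22, and -0.65 with normexp background correction. Oas1a makes the short oligoadenylates that activate RNase L. It read 1.23, 1.21, 0.46, 0.82 and 0.81 in WT(HFD) livers 1 to 5 and -0.78, -1.15, -0.08, -1.64 and -0.48 in the CD44KO(HFD) livers. The groups did not overlap, and the difference was -1.73 ± 0.27 (SE, n = 5 per group, limma adjusted p = 0.0103), a 3.32-fold lower level. Its relatives fell as well, Oas2 by 1.20, Oasl1 by 1.10 and Oasl2 by 1.43 on the log2 scale. With normexp Oas2 differed by -0.69 and did not pass (limma adjusted p = 0.111).

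Ifit proteins bind viral RNA and stop its translation. Ifit3 read between 2.08 and 2.44 in WT(HFD) liver and between 0.75 and 1.5 in CD44KO(HFD) liver, a difference of -1.23 ± 0.14 (SE, n = 5 per group, limma adjusted p = 0.00368). The ranges were separate, with the third CD44KO(HFD) liver the highest of its group. Ifit2 fell by 1.27 and Ifit1 by 0.88 on the log2 scale. With normexp background correction neither passed, Ifit2 at -0.31 and Ifit1 at -0.60 (limma adjusted p = 0.503 and 0.0855). Ifit1 did not overlap between the groups either.

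The Mx genes encode dynamin-like GTPases and did not pass the test. Mx1 was dim, with only 2 of the CD44KO(HFD) signals well above background, and differed by -1.40 ± 0.51 (SE, n = 5 per group, limma adjusted p = 0.0904). The fourth WT(HFD) liver read -1.81, far above the -4.41 to -3.91 of the other 4. Mx2 differed by -0.28 ± 0.17 (limma adjusted p = 0.285). Oas3 differed by -0.79 ± 0.25 with an adjusted p of 0.0636 in limma, passed without the first CD44KO(HFD) liver (0.0261) and differed by 0.0059 with normexp background correction. Its second probe was well above background in 3 WT(HFD) livers and in none of the CD44KO(HFD) livers, and was at least 1.26-fold lower there (limma adjusted p = 0.0164). That bound sets the WT(HFD) mean against the dimmest detected signal of each CD44KO(HFD) array. Oas1g was not well above background in any liver and was not tested.

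Of the gamma families, 4 of 9 tested genes were lower and none was higher, with a median difference of -0.56, which was -0.32 with the second-brightest probes. The guanylate-binding protein Gbp3 read 0.90, 0.82, 0.68, 1.03 and 0.91 in WT(HFD) liver against -0.43, -0.67, 0.40, -0.71 and -0.01 in CD44KO(HFD) liver. Here too the groups were separate and the third CD44KO(HFD) liver was the highest of its group. The difference was -1.15 ± 0.20 (SE, n = 5 per group, limma adjusted p = 0.0123).

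Psmb8 and Psmb9 replace standard proteasome subunits and change the peptides made for MHC class I. Psmb9 read between 3.83 and 4.30 in WT(HFD) liver and between 3.01 and 3.65 in CD44KO(HFD) liver, and Psmb8 between 3.98 and 4.28 against 3.4 and 3.75. The differences were -0.81 ± 0.13 for Psmb9 and -0.56 ± 0.09 for Psmb8 (SE, n = 5 per group, limma adjusted p = 0.0103 and 0.0106). The signals were bright and their spread narrow. In a single fit over all 20 arrays Gbp3, Psmb9 and Psmb8 were not called (limma adjusted p = 0.158, 0.199 and 0.259).

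On their brightest probes the immunity-related GTPases, which disrupt the vacuoles of intracellular pathogens, did not pass the test apart from Tgtp. Iigp1 was the brightest of them and read between 5.32 and 5.69 in WT(HFD) liver and between 5.44 and 5.81 in CD44KO(HFD) liver. The ranges overlapped, and the difference was 0.08 ± 0.10 (SE, n = 5 per group, limma adjusted p = 0.643). Igtp differed by -0.32 ± 0.18, Irgm1 by -0.25 ± 0.08 and Ifi47 by -0.17 ± 0.11, with limma adjusted p-values of 0.241, 0.0610 and 0.308. The second probe of Irgm1 was called lower, at -0.32 (limma adjusted p = 0.0372).

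Tgtp, a GTPase of the same family, was called at -0.86 ± 0.23 (SE, n = 5 per group, limma adjusted p = 0.0377). In 9 of the 10 fits that left out an array Tgtp no longer passed, with adjusted p-values up to 0.0829, and it passed without the third CD44KO(HFD) liver at 0.00453. Gbp2 differed by -0.74 ± 0.24 (limma adjusted p = 0.0646). Without that same liver, which read 0.41 where the other 4 lay between -0.97 and -0.02, Gbp2 differed by -0.94 with a limma adjusted p of 0.0110.

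Of the 8 other antiviral effectors tested, 7 were lower. Isg15 is a ubiquitin-like protein that is joined to target proteins, and Usp18 is the protease that removes it and also restrains the type I receptor. Isg15 read 1.94, 2.17, 2.15, 2.23 and 2.28 in WT(HFD) liver and 0.99, 1.14, 1.06, 0.85 and 0.68 in CD44KO(HFD) liver. The groups stood clearly apart and the difference was -1.21 ± 0.10 (SE, n = 5 per group, limma adjusted p = 0.000548). Usp18 read 1.59, 2.02, 1.69, 1.84 and 1.73 against -0.15, 0.07, 0.82, -0.36 and -0.33. This was the largest difference among the 39, -1.76 ± 0.21 (limma adjusted p = 0.00419).

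Ifi44 fell by 1.63 on its brightest probe, but by 0.85 on its second (limma adjusted p = 0.260) and by 0.98 with normexp (0.0665). Zbp1, a sensor of Z-form nucleic acid, fell by 1.28 and Trim30 by 1.20 on the log2 scale. Rsad2, the antiviral enzyme viperin, fell by 0.84 and Bst2, the tetherin that holds budding virus at the cell surface, by 0.48. Parp14 differed by -0.34 ± 0.11 (SE, n = 5 per group, limma adjusted p = 0.0561), and passed without the third CD44KO(HFD) liver (0.0157). Its second probe was called lower, at -0.62 (limma adjusted p = 0.0276). In the fit over all 20 arrays Zbp1 and Bst2 were not called (limma adjusted p = 0.186 and 0.421).

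Of the RNA sensors of the cytoplasm, Dhx58 (LGP2) fell by 0.74 and Ddx58 (RIG-I) by 0.51, while Ifih1 (MDA5) differed by -0.07 ± 0.07 (SE, n = 5 per group, limma adjusted p = 0.535). Ddx58 passed in 4 of the 10 fits that left out an array, with adjusted p-values up to 0.0605. It was not called with normexp (-0.43, limma adjusted p = 0.0706), and its second probe differed by -0.13 (0.498). Among the transcription factors Irf7, which drives the second wave of interferon alpha, showed the largest change. It read 1.63, 1.66, 1.27, 1.39 and 1.54 in WT(HFD) liver and 0.34, 0.05, 0.84, -0.12 and 0.26 in CD44KO(HFD) liver. No array overlapped, and the difference was -1.22 ± 0.17 (SE, n = 5 per group, limma adjusted p = 0.00678).

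Irf8 fell by 0.60 and Irf9 by 0.41. Irf8 was lost without the second WT(HFD) liver (limma adjusted p = 0.0522), and Irf9 passed in 6 of the 10 fits that left out an array, with adjusted p-values up to 0.0667. The second probes did not pass, Irf8 at -0.50 and Irf9 at -0.11 (limma adjusted p = 0.102 and 0.647). Stat2 differed by -0.33 ± 0.11 and Irf1 by -0.17 ± 0.12, with limma adjusted p-values of 0.0757 and 0.348. Tap1, a subunit of the peptide transporter of the MHC class I pathway, differed by -0.26 ± 0.09 (limma adjusted p = 0.0936), and passed without the third CD44KO(HFD) liver (0.0158). Of the DNA-binding p200 family, Ifi205 fell by 0.82 and Ifi204 by 0.72, while Ifi203 differed by -0.28 ± 0.15 (limma adjusted p = 0.217). Ifi204 passed in 6 of the 10 fits that left out an array, with adjusted p-values up to 0.0606. The second probe of Ifi205 differed by -0.75 (limma adjusted p = 0.0694). These relatives are close in sequence, as are Oas1a and Oas1g, and how far their probes share transcripts was not tested.

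The third CD44KO(HFD) liver was the nearest to the WT(HFD) group. The per-array median over the 39 members, as a difference from the WT(HFD) mean, was -0.45 there and between -1.08 and -0.72 in the other 4 CD44KO(HFD) livers. For the gamma families it was -0.07 there against -0.72 to -0.47, and for the type I families -0.70 against -1.52 to -1.13. Within the 3 slides that carried liver arrays 38, 37 and 36 of the 39 members had a negative difference, and the median member differed by -0.97, -0.58 and -0.56. Among the 20 other probes of members that could be tested in liver, 10 were lower, none was higher and 18 had a negative difference.

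Of the other genes of the pathway, the ligands and receptors gave no call in liver. Of 7 tested none was called, and interferon gamma itself, Ifng, was dim and differed by -0.83 ± 0.32 (SE, n = 5 per group, limma adjusted p = 0.104). Ifnb1, Ifna2, Ifna4 and Ifnk were not tested because too few liver arrays read them well above background. Of 21 signal transduction genes tested 1 was higher in CD44KO(HFD) liver, where 7.85% of all probes were higher. It was Irf3, a factor that switches on interferon genes, by 0.31 (limma adjusted p = 0.0448). Of 32 further interferon targets 14 were lower and none was higher, with a median of -0.31. The largest changes were in Ifi27l2a, -1.91 ± 0.31, Gbp6, -1.68 ± 0.24, and Ciita, the master regulator of MHC class II, -1.56 ± 0.23 (SE, n = 5 per group).

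Marker genes of NK and T cells were lower in CD44KO(HFD) liver as well. The summed level of 10 genes of NK and cytotoxic cells lay between 1.0 and 1.90 in WT(HFD) liver and between 0.522 and 0.667 in CD44KO(HFD) liver, with 6 of 7 tested genes lower. For 10 T cell genes it lay between 2.70 and 4.31 against 2.19 and 2.83, with 5 of 8 lower, and Cd8a was not well above background in any CD44KO(HFD) liver. For 10 macrophage genes it lay between 49.9 and 112.7 against 41.7 and 121.1, with 2 of 9 lower, and for 6 Kupffer cell genes between 28.6 and 84.4 against 72.9 and 191.7, with 2 of 6 higher and none lower. Dendritic cell genes gave 1.05 to 1.48 against 1.11 to 1.70 and hepatocyte genes 2698 to 3570 against 3356 to 4046. B cell genes gave 3.46 to 6.38 against 1.51 to 2.94, with Blnk (-1.71) lower and the other 4 between -0.0025 and 0.17, and neutrophil genes 1.68 to 2.85 against 0.742 to 1.86. Adipocyte genes gave 85.3 to 112.9 against 12.0 to 73.9, with 1 of 4 tested lower, mesothelium genes 0.432 to 1.10 against 0.425 to 1.14, and epididymis genes 0.118 to 0.259 against 0.177 to 0.235. Their part in the fall of the interferon-induced genes was not tested.

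**Figure D2:**
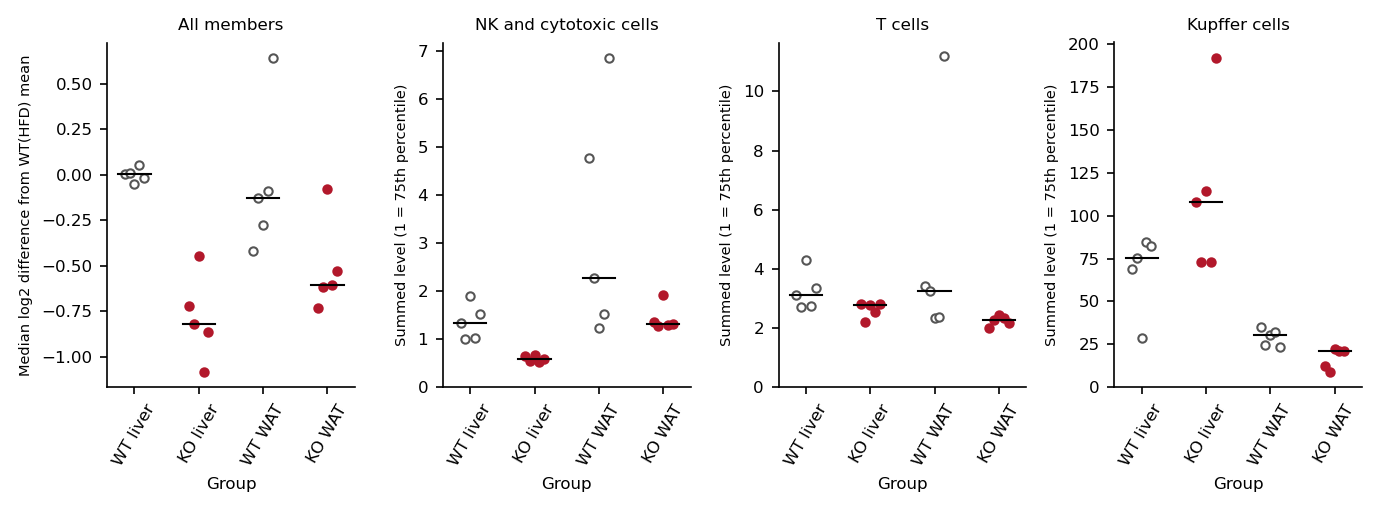
Median log2 difference of all members from the WT(HFD) mean of the tissue (left) and the summed level of the marker genes of NK and cytotoxic cells, T cells and Kupffer cells, where 1 is the 75th percentile of an array. Each point is an array, open for WT and filled for KO, and the bar is the median; in liver the members and the NK and cytotoxic genes are lower in every CD44KO(HFD) array, the Kupffer cell genes are not, and in WAT WT(HFD) replicate 5 stands highest in the first 3 panels.

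The elements through which interferons act were looked for in the promoters of the members. RefSeq promoter windows of 300 bases around the start (build GRCm38.p6) were matched for 31 of the 40 genes, by current symbol. The ISRE core GAAANNGAAA, searched on both strands, occurred in 19 of 31 members (61.3%) and in 3.99% of all 27025 genes. The GAS core TTCNNNGAA, which reads the same on both strands, occurred in 8 of 31 (25.8%) and in 9.55% of all genes. Of the 20 members lower in liver with a window 11 held an ISRE core, and of the 10 not called 7 did, so the element was found on both sides of the call. In the type I and the gamma families it was found in 5 of 8 genes each.

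The windows of the 3 members of each family group with the largest difference in liver and at least 1 match are printed 5′ to 3′ on the gene's strand, with the matches to either core in capitals. All but Gbp2 were called lower in CD44KO(HFD) liver.
Oas1a, chr5:120907476-120907775, minus strand: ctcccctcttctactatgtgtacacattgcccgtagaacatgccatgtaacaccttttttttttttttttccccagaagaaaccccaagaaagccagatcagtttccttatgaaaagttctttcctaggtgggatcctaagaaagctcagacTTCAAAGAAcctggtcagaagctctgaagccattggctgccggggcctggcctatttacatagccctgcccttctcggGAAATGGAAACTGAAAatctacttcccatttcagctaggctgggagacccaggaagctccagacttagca
Ifit2, chr19:34550444-34550743, plus strand: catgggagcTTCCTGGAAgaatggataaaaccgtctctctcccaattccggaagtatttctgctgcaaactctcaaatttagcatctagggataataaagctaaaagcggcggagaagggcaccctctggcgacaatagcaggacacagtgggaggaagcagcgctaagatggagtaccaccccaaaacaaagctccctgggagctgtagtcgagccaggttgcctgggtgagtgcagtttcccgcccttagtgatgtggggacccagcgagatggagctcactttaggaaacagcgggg
Ifit3, chr19:34583279-34583578, plus strand: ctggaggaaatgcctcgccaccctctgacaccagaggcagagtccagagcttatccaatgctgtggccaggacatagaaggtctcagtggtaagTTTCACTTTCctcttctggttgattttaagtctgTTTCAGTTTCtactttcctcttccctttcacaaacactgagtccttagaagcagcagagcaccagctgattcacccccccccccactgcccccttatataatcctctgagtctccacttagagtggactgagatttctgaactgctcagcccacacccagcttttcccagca
Gbp3, chr3:142559794-142560093, plus strand: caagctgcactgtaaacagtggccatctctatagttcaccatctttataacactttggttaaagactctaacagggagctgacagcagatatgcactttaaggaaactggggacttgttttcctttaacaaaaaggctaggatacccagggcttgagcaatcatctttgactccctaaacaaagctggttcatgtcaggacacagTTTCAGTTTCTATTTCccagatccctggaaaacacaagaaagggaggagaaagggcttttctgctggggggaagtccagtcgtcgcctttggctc
Tgtp, chr11:48992197-48992496, minus strand: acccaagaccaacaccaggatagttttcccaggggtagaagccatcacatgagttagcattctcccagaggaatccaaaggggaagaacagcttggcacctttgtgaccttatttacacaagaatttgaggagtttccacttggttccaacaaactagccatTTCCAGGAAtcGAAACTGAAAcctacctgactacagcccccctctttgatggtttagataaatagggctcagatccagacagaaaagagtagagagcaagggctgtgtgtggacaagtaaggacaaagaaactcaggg
Gbp2, chr3:142620413-142620712, plus strand: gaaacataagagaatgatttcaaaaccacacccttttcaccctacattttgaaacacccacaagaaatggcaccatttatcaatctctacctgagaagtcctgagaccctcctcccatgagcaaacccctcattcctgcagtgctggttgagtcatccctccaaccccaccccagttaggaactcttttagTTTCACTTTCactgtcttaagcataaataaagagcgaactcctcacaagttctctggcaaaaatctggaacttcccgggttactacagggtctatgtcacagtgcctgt
In Oas1a overlapping ISRE cores lie close before the start, and a GAS core lies upstream of them. Tgtp holds a GAS core a few bases before an ISRE core, Ifit3 holds separate ISRE cores, and Gbp3 overlapping ones. In Ifit2 only a GAS core was found in the window.

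In WAT no member was called lower or higher in CD44KO(HFD). Of 39 tested, the lowest adjusted p was 0.165 in limma, and 0.0289% of all probes were lower and 0.0108% higher. The median member differed by -0.54 where the median of all probes was -0.06, and 16 members were lower at an unadjusted p under 0.05, as were 6.6% of all probes. Every CD44KO(HFD) array read below every WT(HFD) array for 7 members and for 2.07% of all probes. Other fits gave calls, with 7 members lower in a single fit over all 20 arrays, 2 with limma-trend and 17 with array weights. Of all probes 2.11%, 0.239% and 9.54% were lower in these fits.

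The sign of dim probes in WAT moved with WT(HFD) replicate 1. Of all WAT probes with a mean level below -2, 78.3% had a negative difference with a median of -0.40, and without that array 50.2% did with a median of -0.0025. The median over all probes was 0.038 without it in place of -0.06. Members with a mean level above 2 had a negative difference in 10 of 11 cases with that array and without it, with medians of -0.18 and -0.52. Of all probes at that level 25.5% were negative with it and 34.9% without it. The sign of these bright members depended on WT(HFD) replicate 5 instead. Without replicate 5, Gbp2 (0.44), Irf1 (0.31), Irf8 (0.13), Bst2 (0.11), Psmb8 (0.11), Iigp1 (0.05) and Psmb9 (0.005) were positive, as was Parp14 (0.42). Igtp (-0.14), Ifi204 (-0.36) and Ifi205 (-0.51) stayed negative.

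The 7 members that were lower in each CD44KO(HFD) WAT array than in any WT(HFD) array did not pass the adjusted test, and 4 of them belonged to the type I families. Oas1a read 0.75, 0.99, 1.34, 1.30 and 1.11 in WT(HFD) WAT and -0.37, -0.01, 0.53, 0.37 and 0.31 in CD44KO(HFD) WAT. The groups did not overlap, the difference was -0.93 ± 0.20 (SE, n = 5 per group, limma adjusted p = 0.165), and it was -0.93 also without WT(HFD) replicate 5. Irf7 read -0.37, -1.17, -0.77, -1.10 and -0.20 against -2.05, -2.08, -2.13, -1.43 and -1.59, a difference of -1.13 ± 0.24 (limma adjusted p = 0.165).

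Oasl1 differed by -1.04, Trim30 by -0.93, Ifit1 by -0.72 and Irf9 by -0.36, again with separate groups. Oas3, read on a dim probe, differed by -1.45 with separate groups, and by -1.13 without WT(HFD) replicate 1. The type I families had a median of -0.78.

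The gamma families in WAT were set apart by a single array. On WT(HFD) WAT replicate 5 all 9 genes read at least 2-fold above every other WAT array, genotypes together, and 1.39% of all probes did so. Iigp1 read 1.38, 3.22, 1.53, 2.81 and 6.14 in WT(HFD) WAT and 2.02, 2.01, 3.27, 2.02 and 2.09 in CD44KO(HFD) WAT. Replicate 5 was thus 7.32-fold above the next array, and the other WT(HFD) arrays overlapped the CD44KO(HFD) arrays. Igtp was 6.75-fold, Ifi47 6.25-fold, Tgtp 5.26-fold, Gbp2 4.97-fold, Irgm1 3.76-fold, Gbp3 3.56-fold, Psmb9 3.18-fold and Psmb8 2.26-fold above the next array.

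Zbp1 (4.69-fold), Tap1 (3.42-fold) and Irf1 (2.32-fold) also stood over 2-fold above every other WAT array in that sample. None of the 10 type I genes did, and Oas1a, Oas2, Oas3, Oasl1, Mx1 and Mx2 were higher in another array. On replicate 5 Mx1 read -2.43, below WT(HFD) replicate 1 at -1.42 and above the remaining WAT arrays, which read -3.46 or less. Ifit1 (1.56-fold), Ifit2 (1.62-fold), Ifit3 (1.30-fold) and Oasl2 (1.40-fold) were highest on replicate 5. Of the 39 members tested, 27 were highest on that array, as were 4.84% of all probes.

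**Figure D3:**
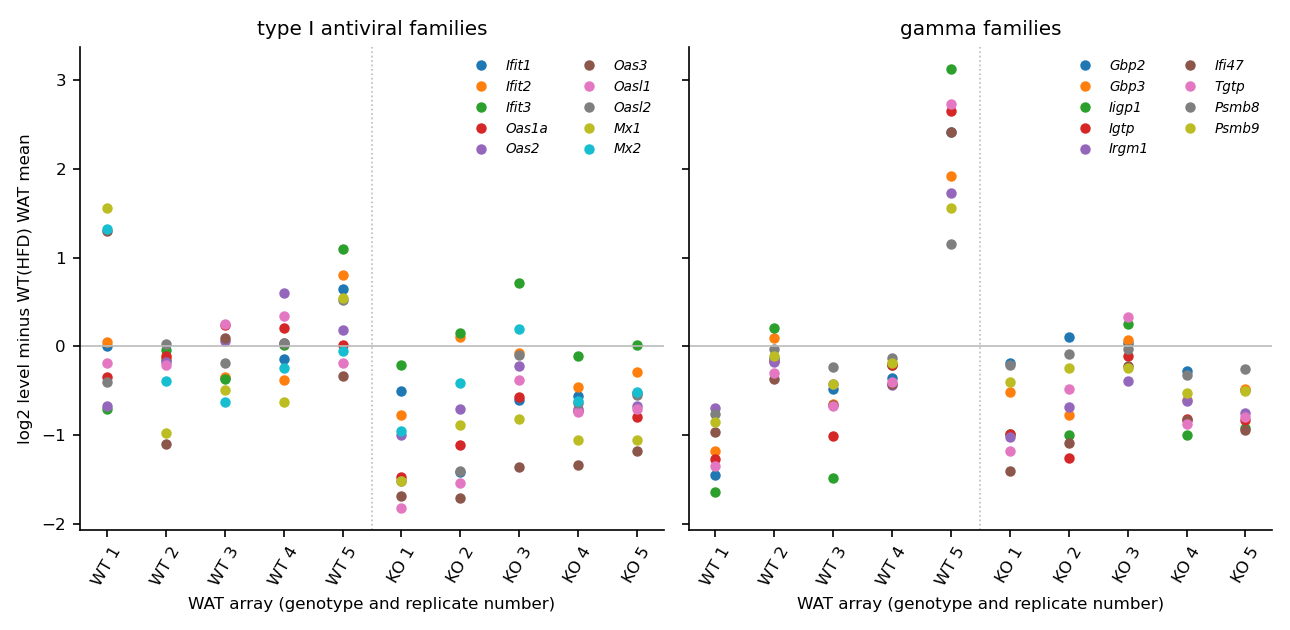
Level of each type I family gene (left) and gamma family gene (right) in the 10 WAT arrays, as log2 difference from the WT(HFD) WAT mean; each point is a gene, WT is WT(HFD) and KO is CD44KO(HFD), and numbers are replicates. All 9 gamma genes peak in WT replicate 5, whereas the type I points of that array reach at most 1.10 and those of the CD44KO(HFD) arrays lie mostly below 0.

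The same sample was the highest of the 10 for Ifng and for T cell genes. Ifng read -1.94, -3.18, -4.95, -3.06 and 0.46 in WT(HFD) WAT and between -4.82 and -3.50 in CD44KO(HFD) WAT. Cxcl9, a chemokine induced by interferon gamma, read 4.59 in replicate 5 and between -0.57 and 1.52 in the other WT(HFD) arrays. Cd3d, a subunit of the T cell receptor complex and among the 10 T cell genes, read 0.65 against -2.50 to -1.49. Cxcl9 and Cd3d are single genes given as examples. The summed level of the 10 T cell genes was 2.33 to 11.2 in WT(HFD) WAT and 2.01 to 2.46 in CD44KO(HFD) WAT. That of the NK and cytotoxic genes was 1.23 to 6.86 against 1.28 to 1.93. For the NK and cytotoxic genes replicate 5 was highest, and WT(HFD) replicate 1 was next at 4.77. Replicate 1 had the lowest gamma family median of any WAT array. Mesothelium genes gave 2.31 to 11.4 against 1.04 to 3.49, Kupffer cell genes 23.7 to 34.9 against 9.08 to 22.5, macrophage genes 379.5 to 532.7 against 359.3 to 483.5 and adipocyte genes 525.1 to 904.9 against 762.2 to 1320, and no gene of these lists was called in WAT. Epididymis genes gave 1.62 and dendritic cell genes 1.89 in WT(HFD) replicate 1, the array that stood apart, where the other 9 WAT arrays gave 0.0395 to 0.212 and 0.357 to 0.868. Their part in the levels of the members was not tested.

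Without replicate 5 the median of the gamma families in WAT was 0.02 in place of -0.60, while that of the type I families was -0.66. No member was called without it either, and 10 members were lower at an unadjusted p under 0.05, as were 7.34% of all probes. Without replicate 1, the array that stood apart, the medians were -0.86 and -0.77 and 18 members were lower at that threshold, as were 5.9% of all probes. Without both, they were -0.21 and -0.65. The slide with 2 arrays of each genotype held WT(HFD) replicate 1. The gamma family median of that array lay -1.17 from the WT(HFD) mean, the lowest of any WAT array. Within this slide the gamma families differed by 0.05 and the type I families by -0.89. The slide that held replicate 5 had 3 WT(HFD) arrays and 1 CD44KO(HFD) array. Within it the gamma families differed by -0.56 and the type I families by -0.28. The last slide held only CD44KO(HFD) arrays.

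Whether the genotype effect differed between the tissues was tested over all 20 arrays. No member passed, where 1.15% of all probes did, and 7 of 39 members had an unadjusted p under 0.05, as had 15.8% of all probes. The nearest were Ifit3, with -1.23 in liver and 0.11 in WAT (difference 1.35 ± 0.36, limma adjusted p = 0.0745), and Usp18, with -1.76 and -0.49 (1.28 ± 0.35, limma adjusted p = 0.0763). Both passed without WT(HFD) WAT replicate 5, at adjusted p-values of 0.0139 and 0.0260 in limma. Usp18 passed also without the third CD44KO(HFD) liver, at 0.0198. Rsad2 differed by -0.84 in liver and 0.09 in WAT (limma adjusted p = 0.120). Liver and WAT arrays of the same mouse are not tied by the labels and entered the fit as independent, and the tissues were hybridised on separate slides and read on different scanners, so levels are not compared between them.

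**Figure D4:**
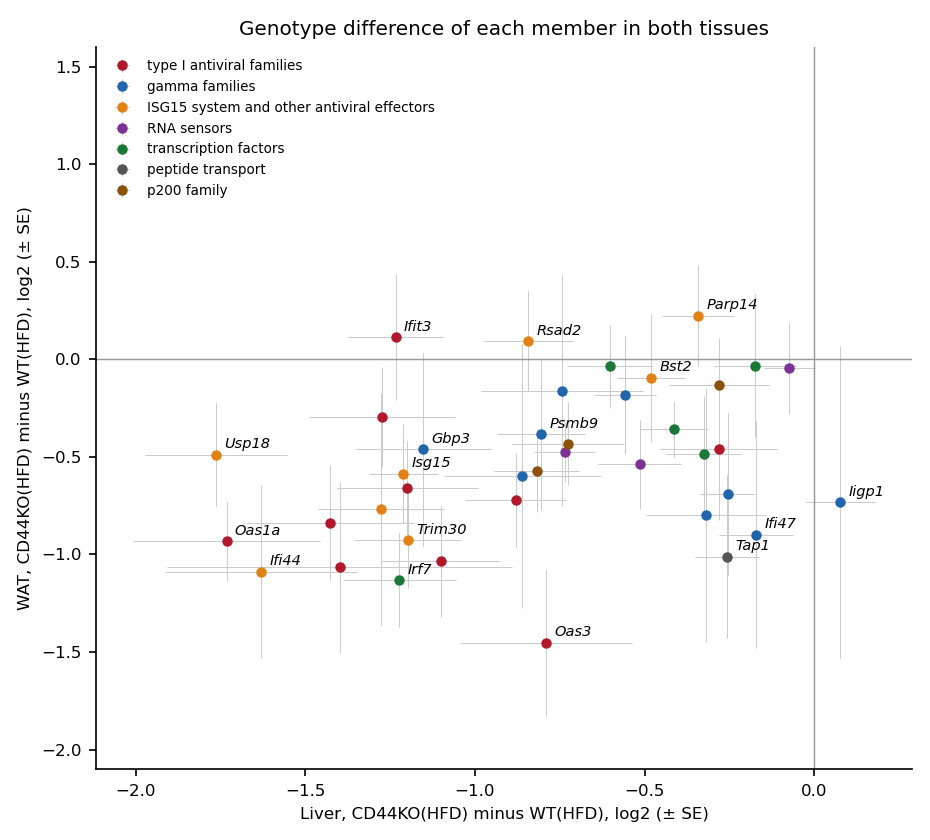
Difference between CD44KO(HFD) and WT(HFD) of each tested member in liver (x axis) and WAT (y axis), both log2 with bars of ± 1 SE; each point is a gene, coloured by group. All points but Iigp1 lie left of 0 in liver, Usp18 and Oas1a furthest, and Ifit3, Rsad2 and Parp14 lie above 0 in WAT.

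The WAT values of Ifit3 and Rsad2 depended on the probe. The brightest and the second probe of each gene are printed 5′ to 3′, with the position that the scanner files give on build mm7, since the values differ between them.
Ifit3, brightest probe, chr19:34289919-34289978: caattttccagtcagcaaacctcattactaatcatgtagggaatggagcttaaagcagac
Ifit3, second probe, chr19:34313887-34313946: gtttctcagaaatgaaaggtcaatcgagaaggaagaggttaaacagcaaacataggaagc
Rsad2, brightest probe, chr12:24278814-24278873: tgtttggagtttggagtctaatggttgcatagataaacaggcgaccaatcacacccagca
Rsad2, second probe, chr12:24286540-24289841: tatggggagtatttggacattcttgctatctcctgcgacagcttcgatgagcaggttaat
In WAT the second Ifit3 probe differed by -0.64, where the brightest differed by 0.11, and the second Rsad2 probe by -0.60, where the brightest differed by 0.09. In liver the second probes fell by 1.06 for Ifit3 and by 1.16 for Rsad2, as the brightest did. Whether the second Ifit3 probe reads Ifit3 or its close neighbour Ifit3b was not tested. For Tgtp the second probe differed by 0.19 in liver, where the brightest was called lower. All 26 other probes of members tested in WAT had a negative difference, with a median of -0.70, and 15 of them had a mean level below -2. None of the 26 was called. All 26 stayed negative without WT(HFD) replicate 1 (median -0.58) and without replicate 5 (median -0.62). Of all WAT probes 55.3% were negative, and 45.3% without replicate 1.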

How the data were processed

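RNA of liver and WAT from 5 WT(HFD) and 5 CD44KO(HFD) mice was labelled with Cy3 and hybridised to 20 Agilent mouse arrays. The intensity values deposited by the authors are the processed signals of Agilent Feature Extraction 9.5, in which, as recomputed here, a fitted surface had been subtracted and dim spots replaced by surrogates. The value table deposited for the series holds the same processed signals in all 20 arrays. Per the file headers the probes were placed on mm7.

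Spots of a probe were averaged and outlier spots left out. Log2 signals were scaled by subtracting the 75th percentile of each array. A probe was tested (24688 probes for liver, 27651 for WAT) if a group had 3 or more of its 5 arrays well above background. WT(HFD) and CD44KO(HFD) were compared within each tissue with limma 3.58.1 (R 4.3.3), p-values were adjusted after Benjamini-Hochberg across every tested probe, and the interaction was fitted over all 20 arrays. A single gene was also tested by exact permutation over samples. The fit was tested on simulated data. The members, pathway lists and marker lists were chosen with earlier results of these data known. Values are given for members that passed in a tissue and for all Ifit, Oas, Mx, Gbp, Irg and Psmb genes, and of the pathway lists for up to 3 genes with the largest change. Alternatives were background correction, scaling, filters, blocks, array weights, other probes, and each array left out. The number of arrays limits the precision. A result on the signal transduction list is not reported here.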

Additional observations from a re-analysis of the deposited data

Results flagged for a closer look

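In 18 of 156 combinations of gene and group (11.5%) a sample lay apart from the other 4, by the gap to its neighbour relative to the range (Dixon's ratio above 0.71). Chance gives about 5%, and the genes are not independent.

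WT(HFD) WAT replicate 5 lay apart and high for 6 genes. Igtp read 6.003, Tgtp 4.603, Irgm1 3.513, Ifi47 2.918, Tap1 1.129 and Isg15 0.637. CD44KO(HFD) WAT replicate 3 lay apart for 7 genes, high for Iigp1 at 3.265, Bst2 at 4.846, Ifih1 at 1.385, Ifi44 at -1.765, Ifi203 at 2.371 and Ifi205 at 4.768, and low for Tap1 at -2.24. The remaining cases were spread over arrays. Ifit1 read -2.606 in CD44KO(HFD) WAT replicate 2, Mx1 read -1.809 in WT(HFD) liver replicate 4, Zbp1 read 0.50 in CD44KO(HFD) liver replicate 3, Ifih1 read 1.358 in WT(HFD) liver replicate 2 and Ifi203 read -0.307 in WT(HFD) liver replicate 3.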

How the results depend on the processing

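In liver no member was called higher under any alternative, and 15 to 29 were called lower, against 25. The count was 15 in 1 fit over all 20 arrays, where 10 of the 25 calls were lost, and 20 to 28 over the fits that left out 1 array. Of the 25, 20 passed in each of those 10 fits, and Tgtp, Ddx58, Irf9, Ifi204 and Irf8 did not. With normexp background correction the median of the type I families in liver was -0.65 in place of -1.22, Oas3 differed by 0.0059, and 5 of the 25 calls (Ifit1, Ifit2, Oas2, Ifi44 and Ddx58) were lost. With quantile normalization Iigp1 in liver differed by -0.048, and with the second probe Irf1 there differed by 0.061 and Tgtp by 0.19. Of 11 called members with a second probe tested, 5 stayed called, and Ifi44, Ddx58, Irf8, Irf9 and Ifi205 as well as Tgtp were lost. Irgm1, Oas3 and Parp14, not called on the brightest probe, were called lower on the second. The gamma median in liver was then -0.32.

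In WAT, where 0 members were called, 7 were lower in the fit over all 20 arrays, 2 (Oas1a and Irf7) with limma-trend and 17 with array weights, a fit in which the estimation of the weights gave a convergence warning. None was called over the fits without 1 array. The median of the gamma families was -0.17 with slide as a block and -0.21 without WT(HFD) replicates 1 and 5, an alternative added after the data were seen, and ran from -0.86 to 0.019 over the fits without 1 array. With slide as a block Bst2 differed by 0.33, Gbp2 by 0.16, Ifi203 by 0.20, Ifih1 by 0.20, Irf1 by 0.18, Irf8 by 0.036, Psmb8 by 0.016 and Tgtp by 0.027. Without replicates 1 and 5, Bst2 differed by 0.043, Gbp2 by 0.16, Irf1 by 0.11 and Irf8 by 0.024. With array weights, Ifit3 differed by -0.011, Parp14 by -0.0099 and Rsad2 by -0.13. With the percentile over detected probes, Ifit3 differed by -0.0078 and Rsad2 by -0.029. With quantile normalization, Ifit2 differed by 0.053 and Ifit3 by -0.013, and with the second probe Ifit3 by -0.64, Rsad2 by -0.60 and Parp14 by -0.70.

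Over the fits that left out 1 WAT array the difference ran for Bst2 from -0.36 to 0.11, for Gbp2 from -0.52 to 0.44, for Gbp3 from -0.75 to 0.019, for Ifih1 from -0.21 to 0.072, for Ifit3 from -0.062 to 0.39, for Iigp1 from -1.14 to 0.050, for Irf1 from -0.27 to 0.31, for Irf8 from -0.15 to 0.13, for Psmb8 from -0.37 to 0.11, for Psmb9 from -0.60 to 0.005, for Rsad2 from -0.084 to 0.24 and for Tgtp from -0.94 to 0.082.

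Members whose effect differed between the tissues numbered 0, and 2 with slide as a block (Ifit3 and Rsad2). There were 2 with limma-trend and 2 without replicates 1 and 5 (Ifit3 and Usp18 in each). With array weights there were 5, and without 1 array 0 to 2. The share of all probes called in these other fits is not given, so the counts are not read as particular to the members. With a replicate block 21 members were lower in liver, and Bst2, Ifi204, Irf9 and Tgtp were lost. Same-numbered arrays were not paired. Their deviations correlated above 0.1 in 3 of 5 pairs in liver and in 0 of 5 in WAT. The best match was the array of the same number only for liver replicate 4. Scalings and filters set the median of all WAT probes between -0.34 and 0.11. Dim probes such as those of Mx1, Oas3 and Ifng limit what can be called.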
